A study of Caenorhabditis elegans with 23 samples.

Results

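The deletion allele *sid-1(jam113)* was compared with wild type in 6 of the 23 polyA+ RNA-seq libraries of the series, 3 from each genotype, across 16783 genes. The libraries were chosen by their labels alone: strain AMJ1324, which carries *jam113*, and the N2 wild type of the same set. RNA came from whole *C. elegans* of mixed stage, grown on crowded plates with food left, with material of 6 plates combined into each of 3 biological replicates per genotype. The other 17 libraries belong to a set made of wild type with *sid-1(jam80[nonsense])* and its revertant *sid-1(jam86)*, and to a set of older alleles, and of these only the first set was used, for comparison. *sid-1(jam113[deletion])* was made by Cas9 editing that removed the whole *sid-1* coding sequence in a wild-type background, so it differs from N2 by that allele and by whatever else its 1 strain carries. No deletion was carried by the wild type, and neither genotype received a treatment or carried a transgene. Small RNAs were not collected, libraries were stranded and paired-end, and mRNA was selected by its polyA tail.

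SID-1 is a transmembrane protein that lets double-stranded RNA enter cells. It is best known from systemic RNA interference in *C. elegans*, where silencing started in one tissue or by ingested RNA spreads to others and to progeny. Imported double-stranded RNA is cut into small RNAs that Argonaute proteins carry to matching transcripts. In RNA from whole animals, fewer cells of a tissue and less RNA per cell cannot be told apart.

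Libraries held 52479992 to 77336320 reads assigned to transcripts in *sid-1(jam113[deletion])* and 54780478 to 79287591 in wild type. Replicate libraries differed by more than counting noise in every pair (chi-square per degree of freedom of 22.3 or more), so all 6 were kept as separate samples. Replicate 3 of *sid-1(jam113[deletion])* stood apart from its own group. By the root mean square difference in log2 expression over all tested genes, replicate 3 lay 0.550 from *sid-1(jam113[deletion])* replicate 1 and 0.433 from replicate 2, but 0.353 to 0.429 from the 3 wild-type libraries. The wild-type libraries lay 0.296 to 0.414 from each other. Replicate 1 of *sid-1(jam113[deletion])* was the farthest from wild type, at 0.507 to 0.659. Results are therefore given with all 6 libraries and without *sid-1(jam113[deletion])* replicate 3, a choice made with earlier results of these data known.

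The targeted gene matched the labels in every library. *sid-1*, on chromosome V at positions 5119970 to 5126916 (WBcel235), had 62, 72 and 106 reads in the *sid-1(jam113[deletion])* libraries, against 3641, 3133 and 3881 in wild type. Scaled to library size (CPM), these were 1.19, 1.22 and 1.42 CPM in *sid-1(jam113[deletion])*, against 51.4, 54.2 and 49.1 CPM in wild type. The groups did not overlap, and the log2 fold change of *sid-1(jam113[deletion])* over wild type was -5.32 ± 0.11 (± standard error throughout, adjusted *p* = 2.19e-07, edgeR). All reads left in *sid-1(jam113[deletion])* were assigned to the transcript C04F5.1.1, while the other annotated transcript, C04F5.1.2, received 0 reads in each of the 3 libraries and 347, 164 and 229 in wild type. Where along the transcript the remaining reads fell was not measured in the transcript counts used here.

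*F14F9.5*, the next gene on the chromosome, was high wherever *sid-1* was deleted. It lies on the plus strand at V, 5127093 to 5130076, and starts 177 bases past the end of *sid-1*. *F14F9.5* had 33.1, 29.2 and 32.7 CPM in *sid-1(jam113[deletion])*, against 3.98, 3.81 and 3.63 CPM in wild type. The 3 replicates of each group were close to each other and the groups were far apart (log2 fold change 3.06 ± 0.10, adjusted *p* = 5.42e-06, edgeR). Of the other 19 tested genes among the 10 nearest on each side of *sid-1*, none passed the threshold with all 6 libraries, the lowest adjusted *p* being 0.0705. That gene was *ugt-63*, a member of the UDP-glucuronosyltransferase family that joins sugars to small molecules. *ugt-63* had 15.7, 11.7 and 7.42 CPM in *sid-1(jam113[deletion])*, against 3.603, 1.904 and 3.54 CPM in wild type, and it was among 3 of these 19 neighbours that passed once replicate 3 was left out, beside 8.27% of all tested genes. Of the 3, *ugt-63* and *Y58A7A.1* were higher and *Y58A7A.3* was lower. Over all libraries of the *sid-1(jam80[nonsense])* set, its wild type included, *ugt-63* had 13.4 to 19.2 CPM. Scaled together with them, the *sid-1(jam113[deletion])* libraries had 14.7, 10.6 and 6.61 CPM. The wild type of the *sid-1(jam113[deletion])* set was thus the low group for *ugt-63*. Whether the changes near *sid-1* come from the edited DNA was not tested.

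Across the genome, 33 of the 16783 tested genes (0.197%) passed an adjusted *p* of 0.05, 28 of them higher (0.167%) and 5 lower (0.0298%) in *sid-1(jam113[deletion])*. At an unadjusted *p* of 0.05, 2137 genes passed. In each of the 33 the library values of the groups did not overlap, which also held for 9.8% of all tested genes in the higher direction and for 8.19% in the lower direction. Of the 33, 32 were protein-coding and 1, *Y48G1BL.5*, was an annotated pseudogene. Chromosome V held 13 of them among 3415 tested genes (0.381%), and the other nuclear chromosomes held 3 to 6 each.

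Each library carried weight in that count. With *sid-1(jam113[deletion])* replicate 1 left out, 21 genes passed, of which 15 were among the 33, and with replicate 2 left out 9 passed, all among the 33. Without wild-type replicate 1 or wild-type replicate 2, 10 genes passed each time, all among the 33, and without wild-type replicate 3, 39 passed, of which 13 were among the 33. Without *sid-1(jam113[deletion])* replicate 3, 1388 genes passed (8.27%), including all 33 with the same direction. No gene among the 33 changed sign in any of these fits. The tool mattered too, with 26 genes called by limma voom and 582, all of the 33 included, by DESeq2.

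**Figure D1:**
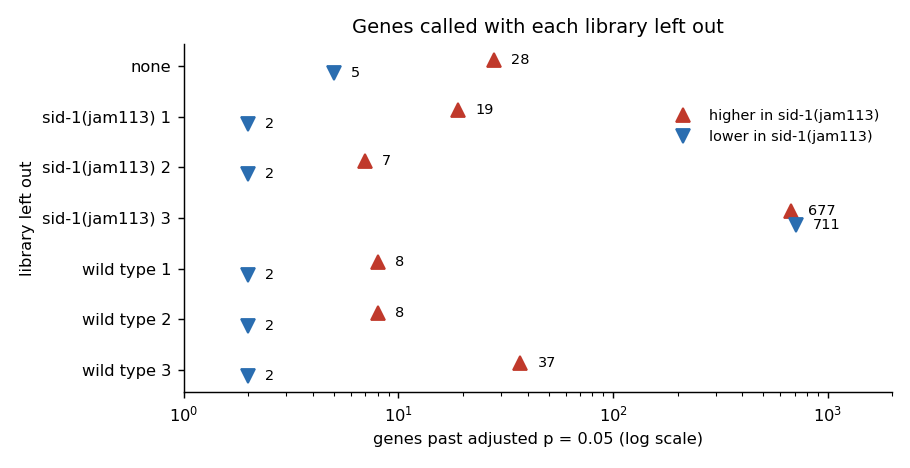
Genes with an adjusted *p* under 0.05 (log axis) when no library or 1 library was left out, with genes higher and lower in *sid-1(jam113[deletion])* drawn separately. The count was 33 with all 6 libraries, 9 to 39 when any library but *sid-1(jam113[deletion])* replicate 3 was left out, and 1388 without that replicate.

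A smaller group of 9 genes passed in each of the 6 fits that left out 1 library. Besides *sid-1* and *F14F9.5*, they were *F07B7.2*, *cls-3*, *T10D4.6*, *C07G1.7*, *ZK177.9* and *C24H11.2*, all higher, and *F47D12.9*, lower. *F07B7.2*, known as *sdg-1*, lies in a duplicated stretch of chromosome V, and its entry collects reads of both identical loci (*W09B7.2/F07B7.2*). It had 17.995, 24.2 and 14.8 CPM in *sid-1(jam113[deletion])*, against 1.24, 1.42 and 1.38 CPM in wild type. All *sid-1(jam113[deletion])* libraries were above all wild-type libraries, with replicate 2 the highest and replicate 3 the lowest of the mutant (log2 fold change 3.82 ± 0.20, adjusted *p* = 9.88e-05, edgeR). *F07B7.1* was also higher, with 1.08, 1.56 and 1.398 CPM against 0.367, 0.208 and 0.215 CPM in wild type (2.34 ± 0.28, adjusted *p* = 0.0306, edgeR), a call that held in 2 of the 6 left-out fits. *Y102A5C.36*, known as *sdg-2*, had 14.7, 14.4 and 13.7 CPM in *sid-1(jam113[deletion])*, against 9.35, 7.46 and 7.15 CPM in wild type. Its groups did not overlap, but its log2 fold change of 0.84 ± 0.12 missed the threshold with all 6 libraries (adjusted *p* = 0.0559) and passed without replicate 3 (adjusted *p* = 0.00545, edgeR). The study, by RNA-seq with limma voom at an adjusted *p* under 0.05, called both *sdg-1* and *sdg-2* higher in *sid-1(jam113[deletion])*. Its RT-qPCR on a later generation of *sid-1(jam113[deletion])* detected no increase of either RNA. The values here are thus of 1 strain at 1 time.

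*cls-3*, which encodes a CLASP-family protein of the microtubule cytoskeleton, had 72.2, 77.8 and 66.2 CPM in *sid-1(jam113[deletion])*, against 11.4, 15.1 and 11.7 CPM in wild type. The difference was several times the spread of either group (log2 fold change 2.51 ± 0.12, adjusted *p* = 5.77e-05, edgeR). *T10D4.6* had 64.6, 70.2 and 68.4 CPM in the mutant, against 17.4, 18.7 and 16.7 CPM in wild type (1.94 ± 0.07, adjusted *p* = 1.08e-05, edgeR). *F47D12.9* ran the other way, with 72.0, 78.2 and 83.2 CPM in *sid-1(jam113[deletion])*, against 205, 196.2 and 201 CPM in wild type (-1.37 ± 0.06, adjusted *p* = 5.25e-05, edgeR). In these 3 genes replicate 3 of *sid-1(jam113[deletion])* sat with replicates 1 and 2.

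Wild type had little or no RNA of 3 of the 9. *C07G1.7* had 8.30, 9.24 and 7.51 CPM in *sid-1(jam113[deletion])*, against 0.311, 0.398 and 0.506 CPM in wild type (4.35 ± 0.20, adjusted *p* = 4.93e-05, edgeR). *ZK177.9* had 2.44, 2.47 and 1.63 CPM in *sid-1(jam113[deletion])*, against 0.0706, 0.0519 and 0.0379 CPM in wild type (5.30 ± 0.33, adjusted *p* = 0.000303, edgeR). *C24H11.2* had 90, 96 and 207 reads in *sid-1(jam113[deletion])*, against 0 reads in each wild-type library of the deletion set. With 3 reads over the wild-type group taken as the limit of detection (0.0144 CPM), its mean of 2.05 CPM in *sid-1(jam113[deletion])* was at least 142-fold higher (adjusted *p* = 0.00707, edgeR).

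**Figure D2:**
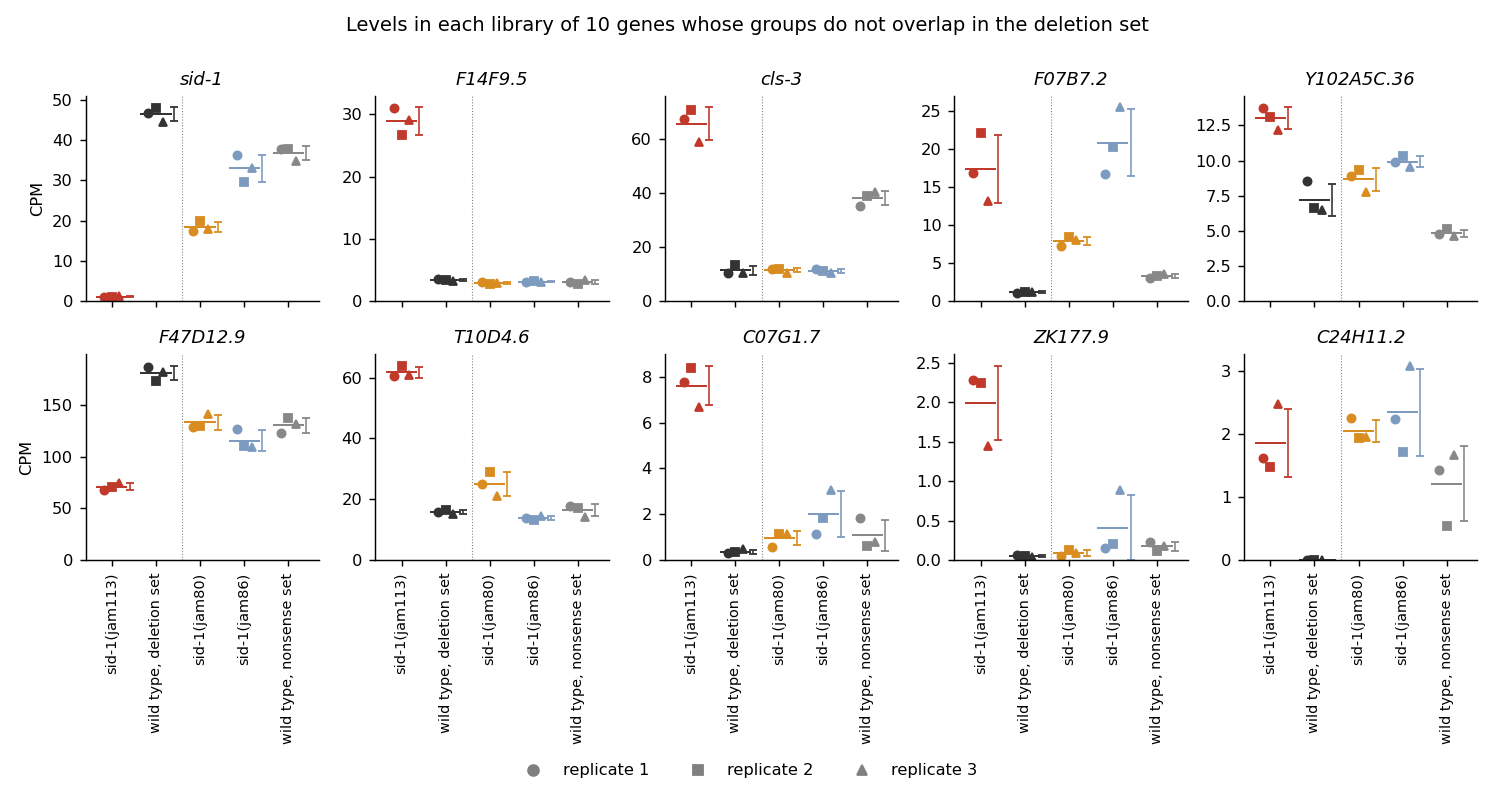
Expression in CPM of 10 genes in each of the 15 plate-grown libraries, in panels of 1 gene, with points for replicates, a line for the mean and a bar for the SD of 3 replicates. Values were scaled over all 15 libraries and so differ slightly from those in the text. The dotted line separates the deletion set from the nonsense set, and *cls-3*, for example, is high in all 3 *sid-1(jam113[deletion])* libraries, low in their wild type and intermediate in the wild type of the nonsense set.

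The other called genes depended more on single libraries. *lam-1*, which encodes the laminin beta subunit of basement membranes, had 72.4, 73.3 and 74.4 CPM in *sid-1(jam113[deletion])*, against 49.1, 47.7 and 54.7 CPM in wild type (log2 fold change 0.54 ± 0.07, adjusted *p* = 0.0306, edgeR). *fat-5*, a palmitoyl-CoA desaturase, had 15.8, 13.7 and 10.6 CPM in the mutant, against 5.13, 3.74 and 4.91 CPM in wild type (1.54 ± 0.18, adjusted *p* = 0.0306, edgeR). *dgat-2*, a diacylglycerol acyltransferase that makes triglycerides, had 7.53, 6.65 and 5.30 CPM, against 2.73, 2.94 and 2.81 CPM in wild type (1.198 ± 0.15, adjusted *p* = 0.0326, edgeR). In both genes replicate 1 of *sid-1(jam113[deletion])* was the highest and replicate 3 the lowest library of the mutant, still above every wild-type library. The call for *lam-1* and that for *fat-5* held in 2 of the 6 left-out fits and that for *dgat-2* in 1.

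Small-molecule handling and transport were represented by single genes. *ugt-53* had 7.30, 5.77 and 4.89 CPM in *sid-1(jam113[deletion])*, against 2.42, 1.54 and 2.29 CPM in wild type (1.51 ± 0.21, adjusted *p* = 0.0463, edgeR). The ammonium transporter gene *amt-1*, with log2 fold change 2.295 ± 0.31, and the ZIP-family metal transporter gene *zipt-2.3*, with 1.86 ± 0.27, were low in both groups, at 0.834 to 1.63 CPM and 0.753 to 1.09 CPM in *sid-1(jam113[deletion])*, against 0.198 to 0.278 CPM and 0.208 to 0.316 CPM in wild type. The cuticlin-like gene *cutl-10* was higher by 1.3004 ± 0.16. Each of these 4 calls held in 1 or 2 of the 6 left-out fits. Lower genes other than *sid-1* and *F47D12.9* were *lys-7*, *M60.7* and *T08B1.1*. *lys-7*, a lysozyme gene, had 161, 194 and 189 CPM in *sid-1(jam113[deletion])*, against 272, 258 and 259.7 CPM in wild type (-0.54 ± 0.08, adjusted *p* = 0.0463, edgeR). *M60.7* changed by -1.44 ± 0.19 and *T08B1.1* by -0.68 ± 0.09, and all 3 calls held in 1 of the 6 left-out fits.

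The remaining called genes, with log2 fold changes of *sid-1(jam113[deletion])* over wild type, were *F15B9.10* (0.41), *C27C7.1* (0.63), *Y20F4.4* (0.69), *Y48G1BL.5* (1.496), *F09B12.3* (0.81), *C52D10.3* (1.22), *C04G6.6* (1.45), *F22E5.1* (1.79), *drd-50* (2.12), *C40A11.8* (2.27), *fbxa-192* (0.63), *C18D4.6* (1.08) and *C38D9.2* (2.01). Of these, *Y48G1BL.5* held in 5 left-out fits and *C27C7.1* in 3. *fbxa-192*, *C18D4.6*, *C38D9.2*, *dgat-2* and *fat-5* lie in one stretch of chromosome V, from 17535586 to 17726818, where 5 of 22 tested genes were called. The median log2 fold change of the stretch was 0.26, and its bounds were chosen after the values were seen.

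Over the 33 called genes, the difference of replicate 3 from the wild-type mean was at least 63.4% of the mean difference of replicates 1 and 2 (median 86.8%). Those genes had to pass with replicate 3 included, so this follows in part from how they were selected. Of the 1388 genes called without it, 677 were higher (4.03%) and 711 lower (4.24%) in *sid-1(jam113[deletion])*, and 1355 of them did not pass with all 6 libraries. In 1351 of the 1388 (97.3%) replicate 3 fell short of replicates 1 and 2 in the direction of their mean difference from wild type. The median share, with its sign, was 24.6% of that difference. Genes in which replicate 3 lay on the opposite side of wild type count among the 1351, whatever the size of its difference. Among the 677 higher genes, replicate 3 was above all wild-type libraries in 496 (73.3%), within their range in 151 (22.3%) and below it in 30 (4.43%). Among the 711 lower genes, it was below all wild-type libraries in 299 (42.1%), within their range in 303 (42.6%) and above it in 109 (15.3%). The median difference from wild type of the lower genes was -0.09 on the log2 scale in replicate 3, against -0.87 for the mean of replicates 1 and 2, while that of the higher genes was 0.29 against 0.74. Since the 1388 genes were selected with replicates 1 and 2, and the 1355 by not passing once replicate 3 was included, these shares describe the libraries, and the difference from the 33 is set by the selection and tests nothing.

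**Figure D3:**
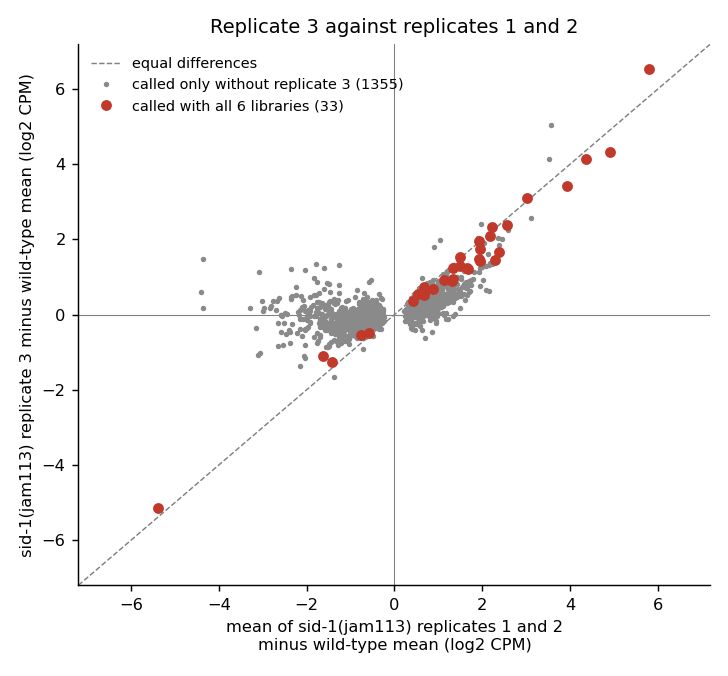
Log2 difference from the wild-type mean in *sid-1(jam113[deletion])* replicate 3 (vertical axis) against the mean of replicates 1 and 2 (horizontal axis), for 1355 genes called only without replicate 3 (grey) and 33 called with all 6 libraries (red). Red points had to pass with replicate 3 included and lie near the line of equal difference, and many grey points on the left lie near 0 in replicate 3, so the 2 colours differ by how the genes were selected.

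Replicate 3 was also the library with the most genes far from the other replicates of its group. Of 9377 genes with a mean of at least 5 CPM in a group, 153 differed by more than 1 on the log2 scale between replicate 3 and the mean of replicates 1 and 2, of which 146 were higher in replicate 3. The same count was 74 for replicate 1, all lower in it, and 3 for replicate 2. In wild type it was 3, 20 and 3 for replicates 1, 2 and 3.

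Single genes show the size of the divergence. *mtl-1*, a metallothionein gene and a known target of the transcription factor DAF-16, had 6.88, 13.03 and 78.9 CPM in *sid-1(jam113[deletion])*, against 55.4, 75.9 and 47.2 CPM in wild type. *fil-1*, a lipase gene induced by fasting, had 1.54, 1.49 and 10.9 CPM in *sid-1(jam113[deletion])*, against 8.59, 12.02 and 9.49 CPM in wild type. *lipl-2*, a lysosomal lipase gene, had 12.94, 23.1 and 71.4 CPM in *sid-1(jam113[deletion])*, against 62.9, 86.2 and 59.2 CPM in wild type. In all 3, replicates 1 and 2 of *sid-1(jam113[deletion])* were below every wild-type library, and replicate 3 lay within or close to the wild-type range. Without replicate 3 the log2 fold changes were -2.57 ± 0.28 for *mtl-1*, -2.72 ± 0.19 for *fil-1* and -1.94 ± 0.24 for *lipl-2* (adjusted *p* = 0.00154, 0.000192 and 0.00256, edgeR). With all 6 libraries none of the 3 passed, and the adjusted *p* was 0.699, 0.56 and 0.503. The same arrangement was seen in *nnt-1*, a mitochondrial nicotinamide nucleotide transhydrogenase gene, with 2.21, 3.55 and 20.003 CPM in the mutant, against 12.999, 18.4 and 12.7 CPM in wild type. It was also seen in *ilys-3*, an invertebrate-type lysozyme gene, with 0.0576, 0.0169 and 2.04 CPM in the mutant, against 1.27, 1.82 and 1.04 CPM in wild type.

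**Figure D4:**
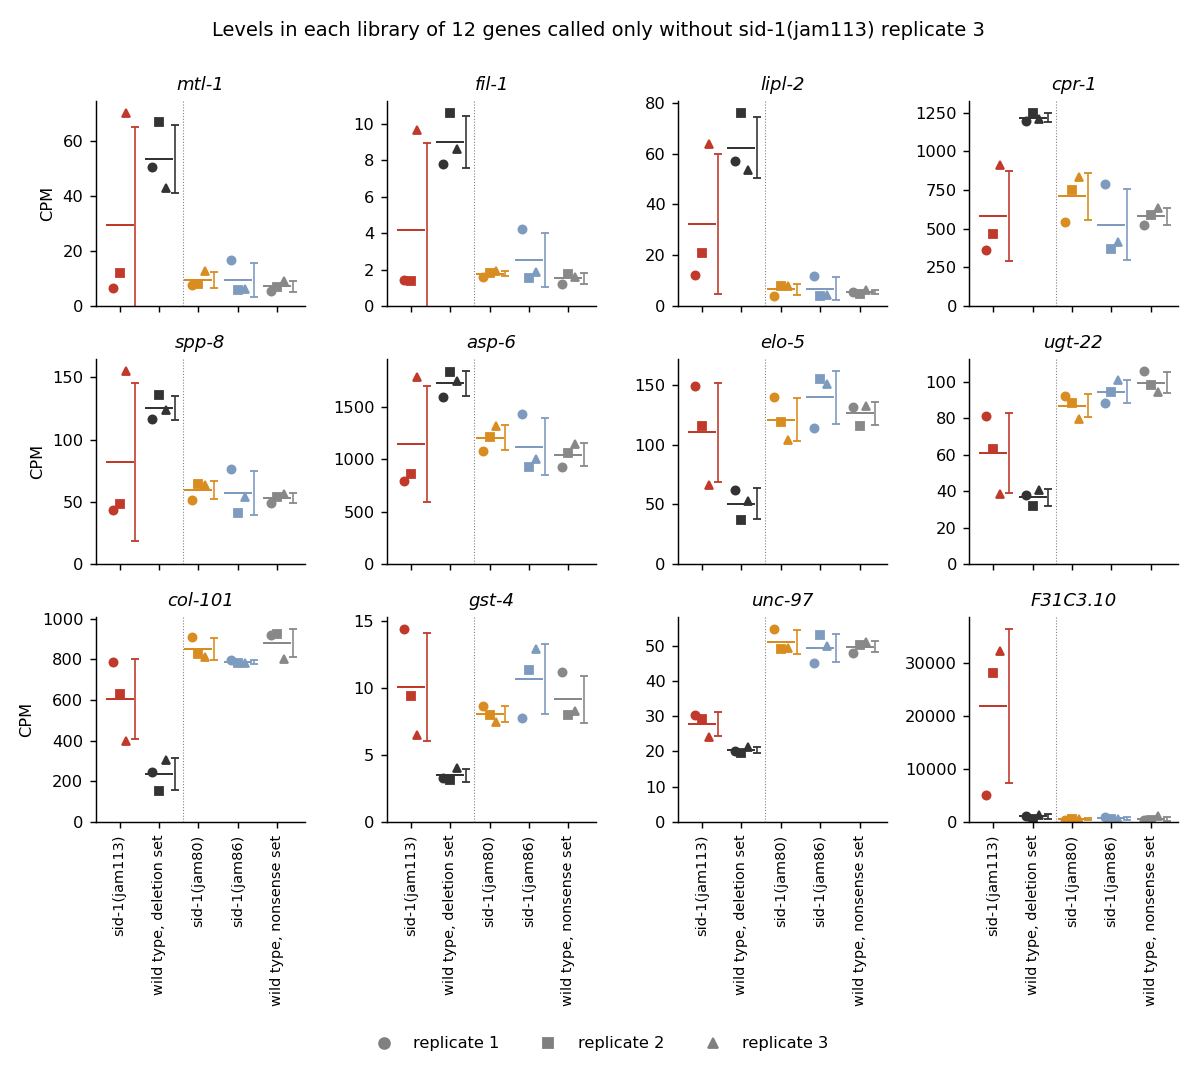
Expression in CPM of 12 genes in each of the 15 plate-grown libraries, scaled over all 15, with points for replicates, a line for the mean and a bar for the SD of 3 replicates, not drawn below 0. In genes such as *mtl-1* and *fil-1* the wide spread of the *sid-1(jam113[deletion])* points comes from replicate 3, which lies at the level of the deletion-set wild type.

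Gene families and tissues were then read from lists of genes, beside 8.27% of all tested genes called without replicate 3 and a median log2 fold change of 0.00 with and without it. The intestine is the site of digestion and the main fat store of the worm. Of 35 intestinal genes, none passed with all 6 libraries, and without replicate 3 15 were lower and 2 higher. Median differences from wild type over the list were -0.41, -0.29 and 0.01 in *sid-1(jam113[deletion])* replicates 1, 2 and 3, against -0.06, 0.02 and 0.02 in the wild-type libraries. *cpr-1*, a cathepsin-B-like protease gene, had 391, 515 and 1025 CPM in *sid-1(jam113[deletion])*, against 1312.5, 1415 and 1332 CPM in wild type (-1.58 ± 0.12 without replicate 3, adjusted *p* = 0.000311, edgeR). *asp-6*, an aspartyl protease gene, had 844, 946 and 2004 CPM, against 1752, 2076 and 1931 CPM in wild type (-1.097 ± 0.10 without replicate 3, adjusted *p* = 0.0011, edgeR). For *cpr-1* replicate 3 lay between the other replicates and wild type, and for *asp-6* it lay within the wild-type range. The intermediate filament gene *ifb-2*, a structural gene of the gut, was lower by a smaller amount, with 104.1, 111 and 148 CPM against 152, 159.9 and 160.0 CPM in wild type (-0.55 ± 0.06 without replicate 3).

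Lysozymes and saposin-like proteins digest bacteria. Of 35 such genes, *lys-7* alone passed with all 6 libraries, and without replicate 3 13 were lower and 3 higher. *spp-8*, a saposin-like gene, had 46.03, 53.1 and 174 CPM in *sid-1(jam113[deletion])*, against 128, 153 and 136 CPM in wild type, and *spp-2* had 46.7, 62.9 and 144 CPM, against 170.2, 191.9 and 163 CPM in wild type. *lys-4* had 64.5, 84.0 and 148 CPM in *sid-1(jam113[deletion])*, against 249.8, 274 and 229 CPM in wild type, so that in this gene replicate 3 stayed below wild type. Targets of DAF-16, the FOXO factor of insulin signalling, gave the highest share of calls without replicate 3, with 10 lower and 2 higher of 20. *lys-7* was the 1 call in that list with all 6 libraries. The catalase genes *ctl-1* and *ctl-2* had log2 fold changes of -0.93 ± 0.09 and -0.87 ± 0.09 without replicate 3, whereas *sod-3*, a mitochondrial superoxide dismutase gene and a target of the same factor, was higher by 0.72 ± 0.15. Over the list, median differences from wild type were -0.50, -0.34 and 0.14 in the *sid-1(jam113[deletion])* replicates. Several genes, *mtl-1* and *lys-7* among them, are in more than 1 of these 3 lists.

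Cuticle collagens form the coat of the worm and are made in pulses at each molt. Of 151 tested collagen genes, none passed with all 6 libraries, and 36 were higher and 3 lower without replicate 3. Their median differences from wild type were 0.30, 0.49 and 0.38 in *sid-1(jam113[deletion])* and -0.09, -0.25 and 0.33 in wild type. Single genes differed from that median, since replicate 3 was below both other mutant replicates in 78 of the 151, beside 6101 of all 16783 tested genes, and above both in 32. Single wild-type libraries moved this list. Its median log2 fold change with all 6 libraries was 0.33, which became 0.55 without wild-type replicate 3 and 0.23 without wild-type replicate 2. *col-101* had 842, 690.3 and 445 CPM in *sid-1(jam113[deletion])*, against 269.6, 171 and 338 CPM in wild type (1.57 ± 0.23 without replicate 3, adjusted *p* = 0.00446, edgeR). *col-143* had 592, 455 and 308 CPM, against 185, 122.3 and 232 CPM in wild type, and in both genes the groups did not overlap and replicate 3 was the lowest of the mutant. *dpy-17*, another collagen gene, had 60.73, 75.8 and 187 CPM in *sid-1(jam113[deletion])*, against 86.9, 107 and 101.2 CPM in wild type, with replicate 3 the highest of all. In the hypodermis, which makes the cuticle, 7 of 26 genes were higher and 4 lower without replicate 3. Whether the genotypes differed in the share of animals at each stage was not tested.

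Body wall muscle genes leaned one way. Of 38, 9 were higher and 0 lower without replicate 3, and none passed with all 6 libraries. Median differences were 0.31, 0.29 and 0.21 in *sid-1(jam113[deletion])*, against -0.02, -0.15 and 0.15 in wild type. *unc-97*, an adaptor gene of muscle attachments, had 32.3, 32.03 and 26.9 CPM in *sid-1(jam113[deletion])*, against 22.1, 22.3 and 23.4 CPM in wild type (0.51 ± 0.08 without replicate 3, adjusted *p* = 0.00455, edgeR). *unc-52*, the perlecan gene of the basement membrane, had 141, 132 and 119.1 CPM, against 82.8, 77.9 and 105 CPM in wild type, and *pat-2*, an alpha-integrin gene, had 40.6, 41.7 and 32.6 CPM, against 26.6, 23.9 and 30.9 CPM in wild type. *let-805*, a gene of the epidermal attachments opposite the muscle, had 63.01, 64.8 and 65.0 CPM, against 37.6, 36.9 and 49.02 CPM in wild type. The groups did not overlap in any of these 4 genes, and wild-type replicate 3 was the highest of its group in each.

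Enzymes that modify foreign and internal small molecules changed in both directions. Of 64 UDP-glucuronosyltransferase genes, 1 (*ugt-53*) was higher with all 6 libraries, and 23 were higher and 4 lower without replicate 3. Median differences were 0.33, 0.39 and 0.07 in the *sid-1(jam113[deletion])* replicates. *ugt-22* had 87.2, 69.4 and 42.9 CPM in *sid-1(jam113[deletion])*, against 41.7, 35.7 and 44.9 CPM in wild type, with replicate 3 inside the wild-type range. *ugt-18* ran against its family, with 0.0768, 0.237 and 3.95 CPM in *sid-1(jam113[deletion])*, against 2.37, 6.30 and 2.80 CPM in wild type. Cytochromes P450, which oxidise small molecules and fatty acids, had 10 higher and 15 lower of 67 without replicate 3 and none with all 6 libraries. *cyp-35D1* had 2.15, 1.39 and 0.954 CPM in *sid-1(jam113[deletion])*, against 0.495, 0.433 and 0.506 CPM in wild type, while *cyp-37B1* had 2.11, 5.28 and 27.6 CPM, against 20.2, 29.1 and 22.1 CPM in wild type. Of 43 glutathione S-transferase genes, 6 were higher and 2 lower without replicate 3. *gst-4*, a common reporter of the oxidative stress factor SKN-1, had 15.4, 10.32 and 7.25 CPM in *sid-1(jam113[deletion])*, against 3.59, 3.58 and 4.48 CPM in wild type (1.73 ± 0.19 without replicate 3, adjusted *p* = 0.0016, edgeR). Its groups did not overlap with all 6 libraries either, at an adjusted *p* of 0.0776.

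Lipid genes split by pathway member. Of 52, *fat-5* and *dgat-2* were higher with all 6 libraries, and 15 were higher and 12 lower without replicate 3. *elo-5* and *elo-6*, elongases of branched-chain fatty acids, were on the higher side. *elo-5* had 159.6, 127 and 74.4 CPM in *sid-1(jam113[deletion])*, against 68.1, 41.3 and 58.2 CPM in wild type, and *elo-6* had 233, 204 and 120.2 CPM, against 94.5, 68.5 and 92.0 CPM in wild type. Of 7 *acox* genes, which encode acyl-CoA oxidases, 2 were higher and 3 lower, all called only without replicate 3. *dhs-28*, *maoc-1* and *daf-22*, which encode consecutive enzymes of peroxisomal beta-oxidation in pheromone synthesis, were on the lower side. *dhs-28* had 92.5, 100.9 and 111 CPM in *sid-1(jam113[deletion])*, against 136, 153 and 140.4 CPM in wild type, and *daf-22* had 63.2, 67.3 and 71.9 CPM, against 85.0, 96.9 and 91.0 CPM in wild type. Without replicate 3 the log2 fold changes of the 3 were -0.56 ± 0.07, -0.78 ± 0.11 and -0.48 ± 0.07, and replicate 3 was below every wild-type library as well, although none passed with all 6 libraries (adjusted *p* = 0.0626, 0.0705 and 0.0705). In the methionine cycle and propionate breakdown, 5 of 20 genes were higher and 1 lower without replicate 3. *sams-1*, an S-adenosylmethionine synthetase gene, had 182, 141 and 103 CPM in *sid-1(jam113[deletion])*, against 74.7, 51.8 and 85.0 CPM in wild type.

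**Figure D5:**
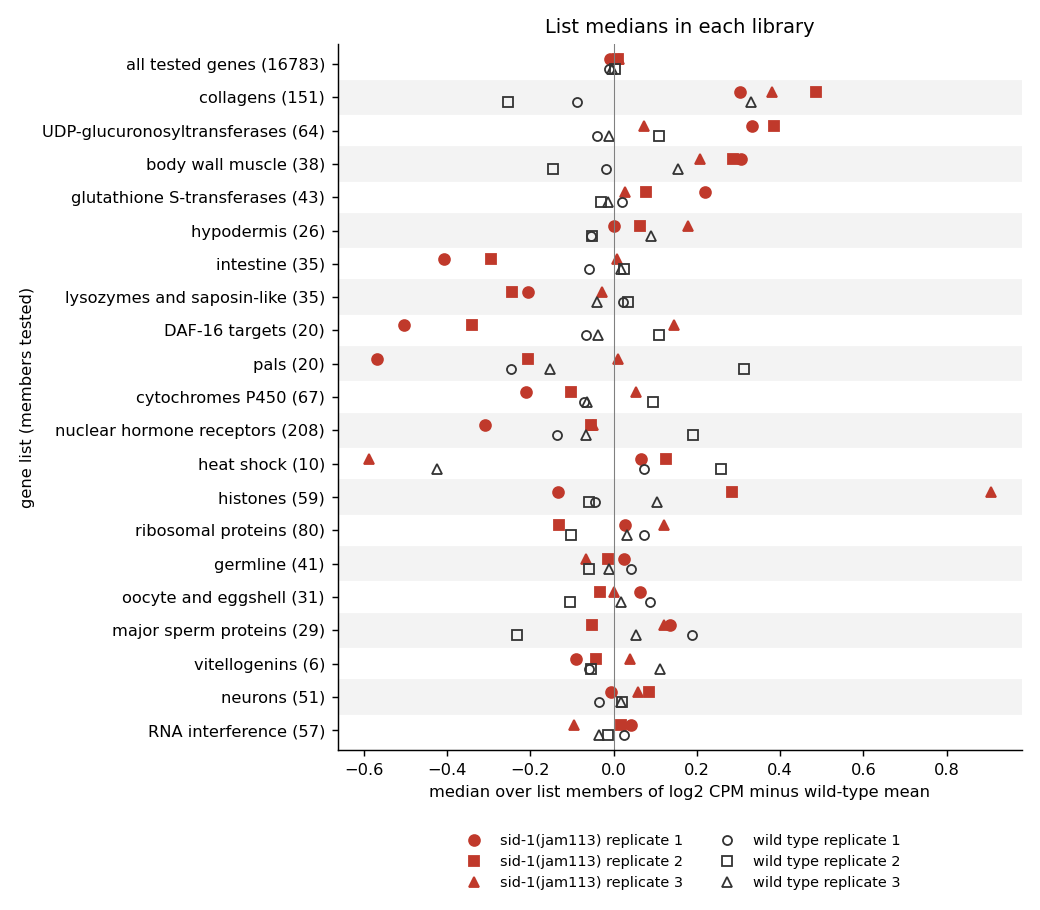
Median log2 difference from the wild-type mean over the genes of each list (21 lists), for each of the 6 libraries. *sid-1(jam113[deletion])* replicates 1 and 2 are low for intestinal genes and DAF-16 targets (-0.41 and -0.50 in replicate 1) while replicate 3 is near or above 0, and the histone list is high in replicate 3 (0.91).

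C-type lectins, nuclear hormone receptors and *pals* genes had more lower than higher calls without replicate 3, and none with all 6 libraries. C-type lectins, which bind sugars, had 15 lower and 6 higher of 133. *clec-63* showed the difference between replicates, with 307, 298 and 661 CPM in *sid-1(jam113[deletion])*, against 436, 532 and 531 CPM in wild type, so replicate 3 exceeded every other library. Nuclear hormone receptors had 15 lower and 5 higher of 208 and *pals* genes, known from the response to intracellular parasites, 3 lower and 0 higher of 20. CUB-like and infection response genes were mixed, with 6 higher and 5 lower of 30. *irg-8* of that list had 136, 96.8 and 64.6 CPM in *sid-1(jam113[deletion])*, against 40.9, 25.3 and 43.8 CPM in wild type, with no overlap. F-box genes had 5 higher and 14 lower of 261, and 1 of them, *fbxa-192*, was higher with all 6 libraries. The shares called for nuclear hormone receptors (9.62%) and F-box genes (7.28%) were close to that of all genes.

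Histone genes were highest in replicate 3 of *sid-1(jam113[deletion])*. Replication-dependent histone mRNAs normally lack the polyA tail by which these libraries were selected. Over 59 tested histone genes the median difference from wild type was -0.13, 0.28 and 0.91 in *sid-1(jam113[deletion])* replicates 1, 2 and 3, against -0.04, -0.06 and 0.10 in wild type, and 49 of the 59 were higher in replicate 3 than in both other replicates, beside 6582 of all 16783 tested genes. None passed with all 6 libraries. *his-64*, for example, had 4.47, 8.95 and 11.78 CPM in *sid-1(jam113[deletion])*, against 3.32, 3.67 and 3.17 CPM in wild type. *F31C3.10*, an annotated pseudogene near the end of chromosome I (15060299 to 15061150, plus strand), spread in a like order, with 5570.5, 31099 and 36307 CPM in *sid-1(jam113[deletion])*, against 1276, 679.8 and 1561 CPM in wild type. The groups did not overlap, but its log2 fold change of 4.38 ± 0.67 missed the threshold (adjusted *p* = 0.0618) and passed without replicate 3 (3.96 ± 0.61, adjusted *p* = 0.00549, edgeR). Reads of *F31C3.10* made up 0.553%, 3.11% and 3.49% of the *sid-1(jam113[deletion])* libraries, against 0.127%, 0.0717% and 0.156% of the wild-type libraries. Replicate 2 was thus nearly as high as replicate 3 for this entry, and what these reads stem from was not tested. Ribosomal protein genes were higher in replicate 3 than in both other replicates in 71 of 80 cases, by little, and the medians were 0.03, -0.13 and 0.12 in *sid-1(jam113[deletion])*, against 0.07, -0.10 and 0.03 in wild type. Heat shock genes were lowest in replicate 3 of both genotypes, with a median of -0.59 in *sid-1(jam113[deletion])* replicate 3 and -0.42 in wild-type replicate 3. Whether RNA quality, growth or tail selection differed between the libraries, replicate 3 included, was not tested.

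Lists of the germline, sperm, oocytes, vitellogenins and early embryo gave 6 calls or fewer each. Of 41 germline genes and 29 major sperm protein genes, none passed with or without replicate 3. Without it, 1 of 31 oocyte and eggshell genes, 1 of 38 spermatogenesis genes and 1 of 6 vitellogenin genes (16.7%) was higher. Other sperm gene families had 2 higher and 4 lower of 71 (8.45%, beside 8.27% of all tested genes). Early embryonic genes had 1 higher and 1 lower of 35 (5.71%). All 41 germline, 31 oocyte and 6 vitellogenin genes on the lists were detected above the filter, as were 29 of 31 major sperm protein genes, so RNA of adults with a germline was present in these mixed-stage samples. Neuron genes had 1 higher of 51, cilia genes 0 of 39 and FMRFamide-like peptide genes 1 lower of 30. Neuropeptide-like proteins had 3 higher and 4 lower of 67 (10.4%), a share above the 8.27% of all tested genes. Insulin-like peptides had 1 lower of 28 and chemoreceptors 1 higher and 4 lower (4.46%). Pharyngeal muscle had 1 lower of 19 and coelomocytes 0 of 6. In each of these lists no gene passed with all 6 libraries.

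The remaining lists varied in their share of calls. Ribosomal proteins (80), the proteasome (31), heat shock genes (10) and mitochondrially encoded genes (12) had 0 without replicate 3, mitochondrial ribosomal proteins 1 lower of 66 and the respiratory chain 1 higher of 39. Unfolded protein response genes had 3 higher of 17, among them the mitochondrial chaperone gene *hsp-6* with 734, 767 and 688 CPM in *sid-1(jam113[deletion])*, against 568, 543 and 599.7 CPM in wild type. These were 17.6% of that list. Small heat shock proteins had 2 higher and 1 lower of 12, MATH and BTB genes 2 higher and 7 lower of 76, transthyretin-related genes 3 higher and 4 lower of 55 (12.7%), and hedgehog-related genes 7 higher and 1 lower of 71 (11.3%), each list above the 8.27% of all tested genes. Around the molt, *abu* and *pqn* genes had 1 higher of 64, molting genes 1 higher and 1 lower of 28, astacin proteases 2 higher and 1 lower of 28 (10.7%) and cuticlins 1 higher of 33. That cuticlin was *cutl-10*, which was also the 1 call in these lists with all 6 libraries.

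Genes of RNA interference gave few calls beyond the deleted gene. Of 57, *sid-1* was the 1 call with all 6 libraries. Without replicate 3, *sid-5*, which encodes an endosomal protein needed for the spread of double-stranded RNA, was also lower, with 7.26, 7.21 and 9.25 CPM in *sid-1(jam113[deletion])*, against 12.4, 11.1 and 9.69 CPM in wild type (-0.61 ± 0.13, adjusted *p* = 0.0233, edgeR). Of 24 tested Argonaute genes, none passed with all 6 libraries and 1 was higher without replicate 3. Median log2 fold changes with all 6 libraries were -0.02 for the RNA interference list and 0.04 for Argonautes, beside 0.00 for all tested genes.

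The change in *sid-1(jam113[deletion])* was set against that in *sid-1(jam80[nonsense])*, a nonsense allele with its own wild type, in a test of the difference between the changes. Of 17170 genes tested over these 12 libraries, 43 passed (0.25%), 34 with a higher and 9 with a lower change in *sid-1(jam113[deletion])*, and 1857 had an unadjusted *p* under 0.05. With single libraries left out the count was 16 to 1335, the highest without *sid-1(jam113[deletion])* replicate 3. Among the 33 genes called in *sid-1(jam113[deletion])*, 20 differed between the alleles and 13 did not pass. For *F14F9.5* the change was 3.06 in *sid-1(jam113[deletion])* and -0.06 in *sid-1(jam80[nonsense])* (adjusted *p* of the difference = 3.46e-08). For *cls-3* it was 2.51 and -1.74, of opposite sign (adjusted *p* of the difference = 1.41e-09, edgeR). For *F07B7.2* it was 3.82 and 1.25 (0.000103). For *Y102A5C.36* the changes were 0.84 and 0.84 (0.996), with a standard error of the difference of 0.16. For *fbxa-192* they were 0.63 and 0.72 (0.913). The 2 contrasts share no library, but each allele was in a different set, so a difference between alleles and one between sets cannot be told apart. Whether the sets were grown or prepared apart is not stated in the labels.

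Levels in the nonsense set placed some of these genes differently, as a description over sets that lay 0.817 to 0.979 apart per library in root mean square log2 difference. *C24H11.2*, at 0 in the wild type grown with *sid-1(jam113[deletion])*, had 0.536 to 3.08 CPM over the 9 libraries of the nonsense set, its wild type included. *cls-3* had 35.4 to 40.5 CPM in that wild type and 10.5 to 12.09 CPM in the nonsense and revertant libraries, so the wild types of the 2 sets did not overlap in this gene. Some called genes were higher in the nonsense-set wild type than in any *sid-1(jam113[deletion])* library. *fat-5* had 22.8 to 26.5 CPM there, against 9.45 to 14.8 CPM in *sid-1(jam113[deletion])*. *dgat-2* had 9.16 to 10.1 against 4.72 to 7.04 CPM, and *lam-1* 120.7 to 135.5 against 66.3 to 67.7 CPM. Others were not, and *F14F9.5* had 2.75 to 3.34 CPM over the 9 libraries. *mtl-1* had 5.36 to 16.6 CPM over the 9 libraries and *fil-1* 1.19 to 4.21 CPM. Those ranges lie near replicates 1 and 2 of *sid-1(jam113[deletion])* and below the wild type of the deletion set. Other genes did not follow, and *lys-4* had 169 to 266 CPM over the 9 libraries, against 60.3 and 76.3 CPM in replicates 1 and 2. Medians of the intestinal list, as differences from the deletion-set wild type, were 0.28 to 0.36 in the nonsense set. In replicates 1 and 2 they were -0.35 and -0.28 on that scale. Collagen medians were 1.74 to 2.05 in the nonsense set, its wild type included, against 0.35, 0.50 and 0.36 in *sid-1(jam113[deletion])* replicates 1, 2 and 3. Body wall muscle medians were 0.85 to 1.13, against 0.36, 0.30 and 0.19. Glutathione S-transferases went the other way, with -0.32 to -0.06 in the nonsense set, against 0.27, 0.09 and 0.01. Over the 1355 genes called only without replicate 3, the mean of the nonsense-set wild type was nearer to the mean of *sid-1(jam113[deletion])* replicates 1 and 2 than to that of the other wild type in 971 (71.7%), beside 55.9% of all tested genes. For the 33 genes called with all 6 libraries this was 17 (51.5%). Among genes called without replicate 3 it was 535 of the 677 higher (79%) and 453 of the 711 lower (63.7%). All these genes were selected with the deletion-set wild type, so the share of all tested genes is no matched baseline and the shares test nothing.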

How the data were processed

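The authors used cutadapt to trim the reads and Salmon to quantify transcripts (versions not given in the sources used here). They deposited, per transcript, raw estimated counts, which can be fractional, TPM adjusted for length and depth, and the transcript's length and effective length. Here estimated counts were summed per gene with the WBcel235 annotation of Ensembl release 115 (identifiers matched 31176 of 35749 transcripts, sequence names a further 4485, and 88 stayed unmatched) and rounded, giving 21982 entries. TPM entered 1 alternative only. Totals were 52479992 to 79287591 per library, so a gene at 0.1 CPM rested on 5.25 to 7.93 reads.

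Genes above 0.1 CPM in at least 3 libraries were compared with edgeR 4.0.16 (R 4.3.3), by TMM normalization, the quasi-likelihood test and Benjamini-Hochberg adjustment, with a threshold of 0.05, on the 6 libraries alone. The filter and normalization follow the study, and limma 3.58.1 with voom, its test, was an alternative beside DESeq2 1.42.0, upper-quartile scaling, no filter, filterByExpr, lengthScaledTPM counts, the replicate number as a block, all 15 plate libraries in one fit and each library left out. Standard errors came from the fold change and the F statistic. The steps were tested on simulated data. CPM are TMM-scaled. Replicates are labelled as biological triplicates, and *p*-values measure the spread between these samples. Exact permutation of 3 against 3 cannot go below 0.1 and was not used. The 8 libraries of older alleles were not used here.

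The gene lists, comparisons and named genes were chosen with earlier results of these data known. Named genes are *sid-1*, *F14F9.5*, *F07B7.2*, *Y102A5C.36* and *cls-3*, called genes without overlap between groups, the 10 nearest tested genes on each side of *sid-1*, in each list up to 5 genes of lowest *p* with and without replicate 3 and 5 of largest replicate 3 difference (at least 5 CPM), and the extremes of replicate 3 and of the test between alleles. Levels over the 15 plate libraries, the stretch of chromosome V and the gene classes were chosen after the values were seen.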

Additional observations from a re-analysis of the deposited data

Results flagged for a closer look

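For 25 of the genes named, a test of the difference between the change in *sid-1(jam113[deletion])* and that in *sid-1(jam80[nonsense])*, each against its own wild type, passed an adjusted *p* of 0.05 (edgeR). Differences below are the first change minus the second on the log2 scale. At and near *sid-1* they were -4.32 for *sid-1*, 3.12 for the adjacent *F14F9.5* and 2.13 for *ugt-63*, which was low in the deletion-set wild type alone. For the genes that held with each library left out they were 2.57 for *F07B7.2*, 4.25 for *cls-3*, 1.34 for *T10D4.6*, 4.45 for *C07G1.7*, 6.22 for *ZK177.9* and -1.4 for *F47D12.9*. The value for *C24H11.2*, 9.01, is a fitted one that depends on the count added to libraries at 0. Further called genes differed by 1.15 (*C27C7.1*), 0.41 (*F15B9.10*), 0.94 (*F09B12.3*), 2.0 (*F22E5.1*), -1.68 (*M60.7*) and -0.74 (*T08B1.1*). In metabolism and transport they were 1.53 for the desaturase gene *fat-5*, 1.96 for *ugt-53*, 2.35 for the ammonium transporter gene *amt-1*, 2.15 for *zipt-2.3* and 1.28 for the cuticlin-like gene *cutl-10*. Besides *ugt-63*, genes not called with all 6 libraries were *F31C3.10* (4.63), *cyp-35D1* (2.23), *gst-4* (1.68) and *dhs-28* (-0.51). Set and allele cannot be told apart in this test.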

How the results depend on the processing

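The count of 33 genes called in *sid-1(jam113[deletion])* became 582 with DESeq2, 21 with upper-quartile scaling, 77 without the filter and 856 with all 15 plate libraries in one fit, and 9 to 1388 with each library left out. It was 26 with limma voom, 33 with filterByExpr and 32 with lengthScaledTPM counts. The 33 genes were all kept by DESeq2, the fit without the filter and the fit of 15 libraries, and 25 were kept by voom. With the replicate number as a block, 11 were called, 10 of them among the 33, and *C24H11.2* was lost. The labels do not say that a number marks a shared day or batch, so the numbers were not taken as pairs. Deviations of same-numbered libraries correlated at 0.321, 0.113 and -0.074, which cannot decide the question. With the block, 2634 genes had an unadjusted *p* under 0.05, against 2137 without it (edgeR). Whether a number marks shared handling was not tested. Without *sid-1(jam113[deletion])* replicate 3, 1388 genes became 3550 with that block, and the other alternatives gave 1290 to 1753. The 43 genes whose change differed from *sid-1(jam80[nonsense])* became 28 with a replicate block within each set, 82 with 15 libraries and 16 to 1335 with each library left out, the highest again without *sid-1(jam113[deletion])* replicate 3. The lowest, 16, was without *sid-1(jam80[nonsense])* replicate 3. Of 1049 alternative values of named genes, 786 kept their side of the threshold, 153 lost a call and 107 gained one. The uncalled *dpy-17* changed direction, from 0.14 to -0.0093 with voom and -0.0438 with the block, and -0.52 to 0.42 with each library left out. No gene called with all 6 libraries changed direction. The cause of these shifts was not tested.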
